A study of Homo sapiens with 9 samples.

Results

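The 30 genes described here encode the enzymes that make purine and pyrimidine nucleotides in human cells, from the supply of the common ribose precursor to the salvage of free bases and nucleosides. They were listed by symbol, and each symbol was matched to 1 Ensembl gene ID of a count table with 60675 IDs, so all 30 were found. Expression was measured by RNA sequencing in MM.1S, an established human multiple myeloma cell line, that is, a line of malignant plasma cells. The cells had 24 h in culture medium with 40 µM or 80 µM of EGCG (epigallocatechin gallate, a green tea catechin), or with 0 µM as the control, and each of the 3 doses had 3 libraries. The sources used here do not name a solvent. All groups are the same line in the same serum-containing medium, so these are data of 1 line in culture. The labels do not say that replicates were separate cultures, so p-values measure only the spread between these libraries. The submitters wanted to learn how EGCG promotes death of myeloma cells.

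Cells can build nucleotides from small molecules (the de novo route) or recycle bases and nucleosides (salvage). In the purine route a base is assembled on phosphoribosyl pyrophosphate (PRPP) up to inosine monophosphate (IMP), which is then turned into AMP or GMP. In the pyrimidine route the ring is closed first and joined to PRPP afterwards, which gives UMP and, from UTP, CTP. Ribonucleotide reductase makes the deoxynucleotides for DNA, and thymidylate synthase adds the methyl group that makes dTMP. The genes of these routes are known to be highly expressed in dividing cells, and several of the enzymes are targets of anticancer drugs.

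Library totals ran from 12674490 to 16427343 counts, and the smallest count of any of the 30 genes in a library was above the filter on low counts, so all 30 were tested among 15982 genes. All 10 listed plasma cell and myeloma markers were detected in every library, with summed levels of 6500 to 8560 CPM (counts scaled to library size). Mature B cell markers summed to 0 to 0.234 CPM, T and NK cell markers to 1.56 to 4.76 CPM, monocyte markers to 0.521 to 0.892 CPM and stromal markers to 0.744 to 3.90 CPM. Of the 4 markers in each of these lists, 2 to 4, 2 to 3, 1 to 2 and 1 to 2, in that order, were at 0 in a library. One library stood apart from its group: on the second principal component the replicate 2 library of 40 µM lay at -51.8, and the other 8 lay between -14.2 and 19.8.

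After 24 h at 80 µM EGCG the transcripts of nucleotide synthesis made up a smaller part of the RNA. The 30 genes took 0.479%, 0.462% and 0.493% of the counts in control replicates 1, 2 and 3, 0.499%, 0.443% and 0.470% at 40 µM, and 0.330%, 0.311% and 0.306% at 80 µM. The shares at 40 µM overlapped those of the control, and the 3 libraries at 80 µM lay below the other 6. At 80 µM 23 of the 30 genes fell against the control and none rose (edgeR's quasi-likelihood test, adjusted p under 0.05), where 34.9% of all genes tested were called, 17.5% lower and 17.4% higher. The median log2 fold change over the 30 was -0.68, and it was 0 over all genes, whose lowest decile ended at -0.79. The groups did not overlap for 24 of the 30, all lower at 80 µM, where 49.9% of all genes did not overlap in one direction or the other. The 30 genes and the lists below were chosen with earlier results of these data known, which limits what a comparison with all genes can show. In bulk RNA, fewer cells that make nucleotides and less of these transcripts per cell cannot be told apart.

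**Figure D1:**
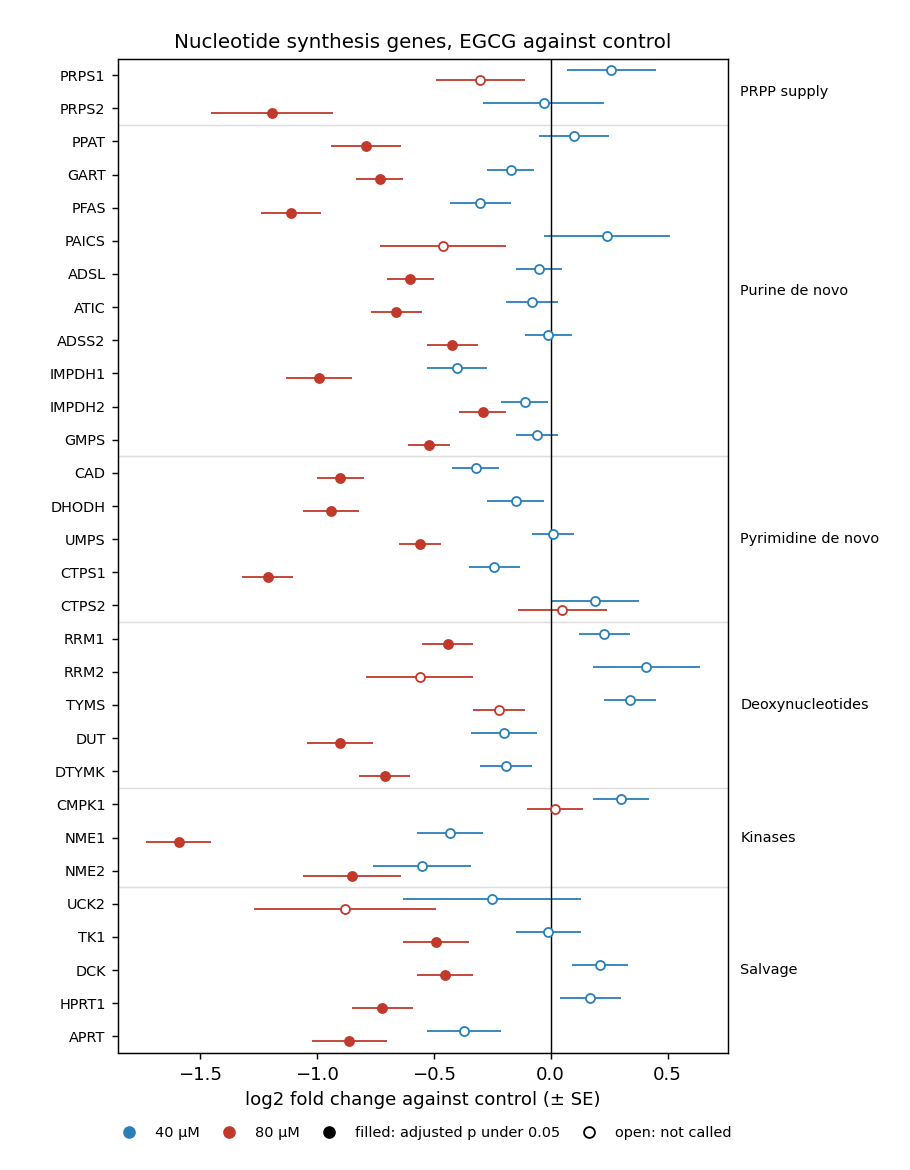
Log2 fold change against the control (horizontal axis, bars are the standard error) for the 30 genes, grouped by role, at 40 µM (blue) and 80 µM (red); filled points passed an adjusted p of 0.05. All filled points are red and lie left of 0, from -0.29 for IMPDH2 to -1.59 for NME1.

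At 40 µM none of the 30 passed the same test, where 2.30% of all genes did (1.49% higher and 0.813% lower). DESeq2 and limma-voom also called 0 of the 30, and 9 had an unadjusted p under 0.05, as did 3188 of the 15982 genes tested. The background rests on 368 genes, a number that depended on single libraries: leaving out replicate 1 or 3 of the control gave 136 or 151, leaving out replicate 2 or 3 of 40 µM gave 173 or 144, and leaving out replicate 2 or 3 of 80 µM gave 229 or 236. The median log2 fold change was -0.05, and single values ran from -0.55 (NME2) to 0.41 (RRM2). The groups did not overlap for 3 genes that were higher (RRM2, TYMS and CMPK1) and 5 that were lower (GART, PFAS, IMPDH1, CAD and CTPS1), and over all genes this share was 24.3%. Without replicate 1 of 40 µM, 1 gene passed, NME1, with a log2 fold change of -0.60, and its adjusted p over all alternatives ran from 0.0344 to 0.337.

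Between the doses, which share the 40 µM and 80 µM libraries with the comparisons above, 23 of the 30 genes were lower at 80 µM than at 40 µM and none was higher, where 23.0% of all genes were called, 12.1% lower and 10.9% higher (3674 in all, but 2101 without 80 µM replicate 2 and 2288 without 80 µM replicate 3). The median difference was -0.58 on the log2 scale, and it was -0.01 over all genes. All 30 estimates lay below 0, from -1.16 (PRPS2 and NME1) to -0.15 (CTPS2), and 26 genes did not overlap between the doses, against 41.6% of all genes. The 40 µM mean lay between the other 2 means for 19 genes and above both for 11 (PRPS1, PPAT, PAICS, UMPS, CTPS2, RRM1, RRM2, TYMS, CMPK1, DCK and HPRT1), and it was below both for none.

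Stretches of promoter are shown for 6 genes of the set, picked because they hold a motif of a factor known to act on growth genes. Of the 30 genes, 28 matched the RefSeq table of promoters (GRCh38.p14), which holds 250 bases before and 50 bases after each start, and IMPDH2 and ADSL did not. The E-box CACGTG, which MYC with MAX and several other factors can bind, was searched on both strands and found for 6 of the 28 (ATIC, DCK, DHODH, NME1, PAICS and PPAT), or 21.4%, where 8.77% of all 27305 genes in the table hold it. Letters of the E2F type (TTTCGCGC, TTTGGCGC or TTTCCCGC, both strands) were found for 5 (DCK, DUT, GART, PRPS2 and TYMS), or 17.9%, where 3.3% of all genes hold them. The ATF4 type motif TGATGNAA was found for 0 of the 28, where 4.46% of all genes hold it. No 2 of these motifs overlapped in a promoter of the set. The E-box found for PAICS and that for PPAT are the same site. The 28 genes had 42 windows and all 27305 genes had 35116, so the set had more windows per gene, which can raise its shares. Of all windows 7.26% hold the E-box and 2.74% the E2F letters. These are shares of windows, and the 21.4% and 17.9% of the set are shares of genes, so the 2 are unlike measures. The stretches run 5′ to 3′ on the gene's strand and end at the base before the start, with the E-box in capitals for the first 4 genes and the E2F letters in capitals for the last 2.
PPAT: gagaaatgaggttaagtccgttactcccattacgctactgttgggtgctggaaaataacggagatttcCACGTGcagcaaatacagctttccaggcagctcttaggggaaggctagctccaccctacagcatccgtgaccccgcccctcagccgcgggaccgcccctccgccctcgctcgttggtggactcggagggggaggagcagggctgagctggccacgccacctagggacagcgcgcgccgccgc
ATIC: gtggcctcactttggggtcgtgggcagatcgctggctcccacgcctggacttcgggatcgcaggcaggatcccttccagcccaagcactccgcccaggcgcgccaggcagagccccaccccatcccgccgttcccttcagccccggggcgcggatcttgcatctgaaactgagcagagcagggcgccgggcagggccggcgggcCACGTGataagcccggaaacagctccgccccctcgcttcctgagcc
DHODH: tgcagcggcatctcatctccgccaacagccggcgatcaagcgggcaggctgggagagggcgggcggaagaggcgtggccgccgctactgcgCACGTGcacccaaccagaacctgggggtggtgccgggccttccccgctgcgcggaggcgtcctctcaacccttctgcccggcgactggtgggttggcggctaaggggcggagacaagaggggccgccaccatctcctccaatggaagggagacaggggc
DCK: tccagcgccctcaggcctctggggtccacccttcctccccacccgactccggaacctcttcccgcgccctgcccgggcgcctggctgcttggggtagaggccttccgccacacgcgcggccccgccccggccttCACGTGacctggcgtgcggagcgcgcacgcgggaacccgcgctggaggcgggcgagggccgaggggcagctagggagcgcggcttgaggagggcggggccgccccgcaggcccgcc
DUT: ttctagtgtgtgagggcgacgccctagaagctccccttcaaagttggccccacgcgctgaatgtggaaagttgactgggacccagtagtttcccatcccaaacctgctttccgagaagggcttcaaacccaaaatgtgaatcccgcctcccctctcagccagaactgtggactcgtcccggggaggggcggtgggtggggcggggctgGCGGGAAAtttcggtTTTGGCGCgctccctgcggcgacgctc
PRPS2: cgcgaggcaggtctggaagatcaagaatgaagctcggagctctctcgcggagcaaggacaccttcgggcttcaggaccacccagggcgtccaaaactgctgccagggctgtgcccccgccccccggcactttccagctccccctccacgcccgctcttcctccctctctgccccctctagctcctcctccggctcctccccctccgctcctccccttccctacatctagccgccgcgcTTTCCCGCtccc
They lie at chr4:56435616-56435865 (minus strand), chr2:215311809-215312058, chr16:72008494-72008743, chr4:70993399-70993648, chr15:48331947-48332196 and chrX:12791162-12791411 (plus strand) in that order. DUT has 4 RefSeq starts, and the one shown holds 2 matches. Genes with and without these motifs fell at 80 µM, such as ATIC (-0.66, with) and CTPS1 (-1.21, without). Others of both kinds were not called, such as PAICS (-0.46, with) and CTPS2 (0.05, without). A match describes letters only, binding was not measured, and the part of these motifs in the falls was not tested.

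PRPP synthetase, which makes the ribose precursor used by both routes and by base salvage, comes in the isoforms PRPS1 and PRPS2, both on chromosome X (107628424 to 107651026 and 12791355 to 12824222; positions of genes are GRCh38 from GENCODE 29). PRPS2 stood at 78.9, 43.2 and 44.4 CPM in control replicates 1, 2 and 3, 43.2, 74.9 and 45.4 in those of 40 µM and 24.2, 24.9 and 24.1 in those of 80 µM, and all further triplets are in this order of replicates. The 3 libraries at 80 µM were nearly equal and below the other 6, where 1 library each in the control and at 40 µM was high. PRPS2 fell by 1.19 ± 0.26 on the log2 scale against the control (SE, adjusted p = 0.006) and by 1.16 ± 0.26 against 40 µM (adjusted p = 0.011). PRPS1 stood at 49.5, 69.5 and 64.8 CPM in control libraries, 60.2, 96.1 and 63.8 at 40 µM and 47.3, 48.8 and 53.5 at 80 µM. Its values at 80 µM overlapped those of the control, and its log2 fold changes of -0.30 ± 0.19 against the control and -0.56 ± 0.19 against 40 µM did not pass (adjusted p = 0.25 and 0.057). The replicate 2 library of 40 µM, which stood apart from its group, had the highest level of PRPS1 of all 9 libraries, and without it the difference between the doses was -0.31. Without replicate 1 of 40 µM that difference was -0.69 and passed, one of 3 alternatives in 17 that called it (0.0361 to 0.193).

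All 10 purine de novo genes had lower estimates at 80 µM than in the control, and 9 of them fell, with a median of -0.63. PPAT, which commits PRPP to purine synthesis, had 74.0, 84.0 and 53.4 CPM in control libraries, 74.8, 77.3 and 74.7 at 40 µM and 44.0, 38.3 and 40.4 at 80 µM. The libraries at 80 µM lay below all others, and PPAT fell by 0.79 ± 0.15 (adjusted p = 0.003). PFAS, which adds an amide nitrogen in the middle of the pathway (chromosome 17, 8247618 to 8270491), had 149, 148 and 154 CPM in control libraries, 146, 119 and 103 at 40 µM and 69.6, 75.5 and 63.9 at 80 µM. The 3 groups of PFAS did not overlap, and the 40 µM libraries were spread between the other groups. PFAS fell by 1.11 ± 0.13 against the control (adjusted p = 0.00017), from 151 ± 3.4 to 69.7 ± 5.78 CPM (SD, n = 3 each), the largest fall of the 10 estimates. GART, whose protein carries out several early steps, including a folate-dependent step, had 172, 164 and 163 CPM in control libraries, 138, 151 and 156 at 40 µM and 102, 91.7 and 107 at 80 µM. It too separated into 3 levels without overlap, and it fell by 0.73 ± 0.10 at 80 µM (adjusted p = 0.00033).

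PAICS, which acts after GART and PFAS, was the purine de novo gene that did not pass. It had 226, 235 and 461 CPM in control libraries, 403, 257 and 427 at 40 µM and 246, 212 and 214 at 80 µM. Replicate 3 of the control and replicates 1 and 3 of 40 µM were high, the other 6 libraries lay between 212 and 257, and the log2 fold change at 80 µM was -0.46 ± 0.27 (adjusted p = 0.22). Against 40 µM it was -0.69 ± 0.27 (adjusted p = 0.092), and it passed in 4 of 17 alternatives: with DESeq2, with 6 libraries fitted, and without control replicate 3 or 40 µM replicate 2 (over all alternatives 0.0225 to 0.225). PAICS and PPAT lie head to head on chromosome 4, with 125 bases between their starts in GENCODE 29. The E-box in the stretch printed for PPAT, at positions 56435792 to 56435797, is also the one found for PAICS, 40 to 45 bases past its RefSeq start, and it lies at -182 to -177 from the RefSeq start of PPAT. Levels of the pair did not follow each other over the control libraries: replicate 3 had the highest PAICS and the lowest PPAT.

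The steps that complete IMP and lead to AMP came next. ADSL, which releases fumarate both on the way to IMP and on the way to AMP, had 118, 111 and 135 CPM in control libraries, 113, 126 and 113 at 40 µM and 78.3, 79.2 and 81.8 at 80 µM. It fell by 0.60 ± 0.10 at 80 µM (adjusted p = 0.0015), without overlap. ATIC, which completes IMP with a second folate-dependent step, had 172, 167 and 205 CPM in control libraries, 160, 183 and 170 at 40 µM and 117, 111 and 117 at 80 µM, and it fell by 0.66 ± 0.11 (adjusted p = 0.00097). For both genes the 6 libraries of the control and 40 µM were mixed and those of 80 µM lay below them. ADSS2, which starts the branch to AMP, went from 90.3 ± 7.73 to 67.3 ± 4.62 CPM, a fall of 0.42 ± 0.11 (adjusted p = 0.010). Without replicate 2 of 80 µM this call was lost (adjusted p 0.0591, over all alternatives 0.004 to 0.0591). AL022238.4, with 1 to 297 counts in a library, covers 18.9% of the exon bases of ADSL on the same strand, so some reads of ADSL could belong to either.

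On the branch to GMP the isoforms of IMP dehydrogenase differed. IMPDH1 (chromosome 7, 128392277 to 128410252) had 126, 125 and 142 CPM in control libraries, 105, 82.4 and 112 at 40 µM and 65.4, 58.6 and 73.6 at 80 µM. Its 3 groups stepped down without overlap, and it fell by 0.99 ± 0.14 at 80 µM (adjusted p = 0.00039). IMPDH2, the isoform known to rise in proliferating cells, had 216, 210 and 260 CPM in control libraries, 209, 221 and 204 at 40 µM and 186, 182 and 194 at 80 µM. It fell by 0.29 ± 0.10 with an adjusted p of 0.049, just under the threshold, and was not called in 14 of 17 alternatives (adjusted p 0.033 to 0.164), among them those without each control replicate but the second and without any of the 80 µM replicates in turn. GMPS, which completes GMP, went from 235 ± 8.57 to 164 ± 4.85 CPM and fell by 0.52 ± 0.09 (adjusted p = 0.002). Between the doses IMPDH1 was lower at 80 µM by 0.60 ± 0.14 (adjusted p = 0.011), a call lost without replicate 2 of 80 µM (0.0573, over all alternatives 0.00166 to 0.0573), and IMPDH2 did not pass (-0.18, adjusted p = 0.24).

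**Figure D2:**
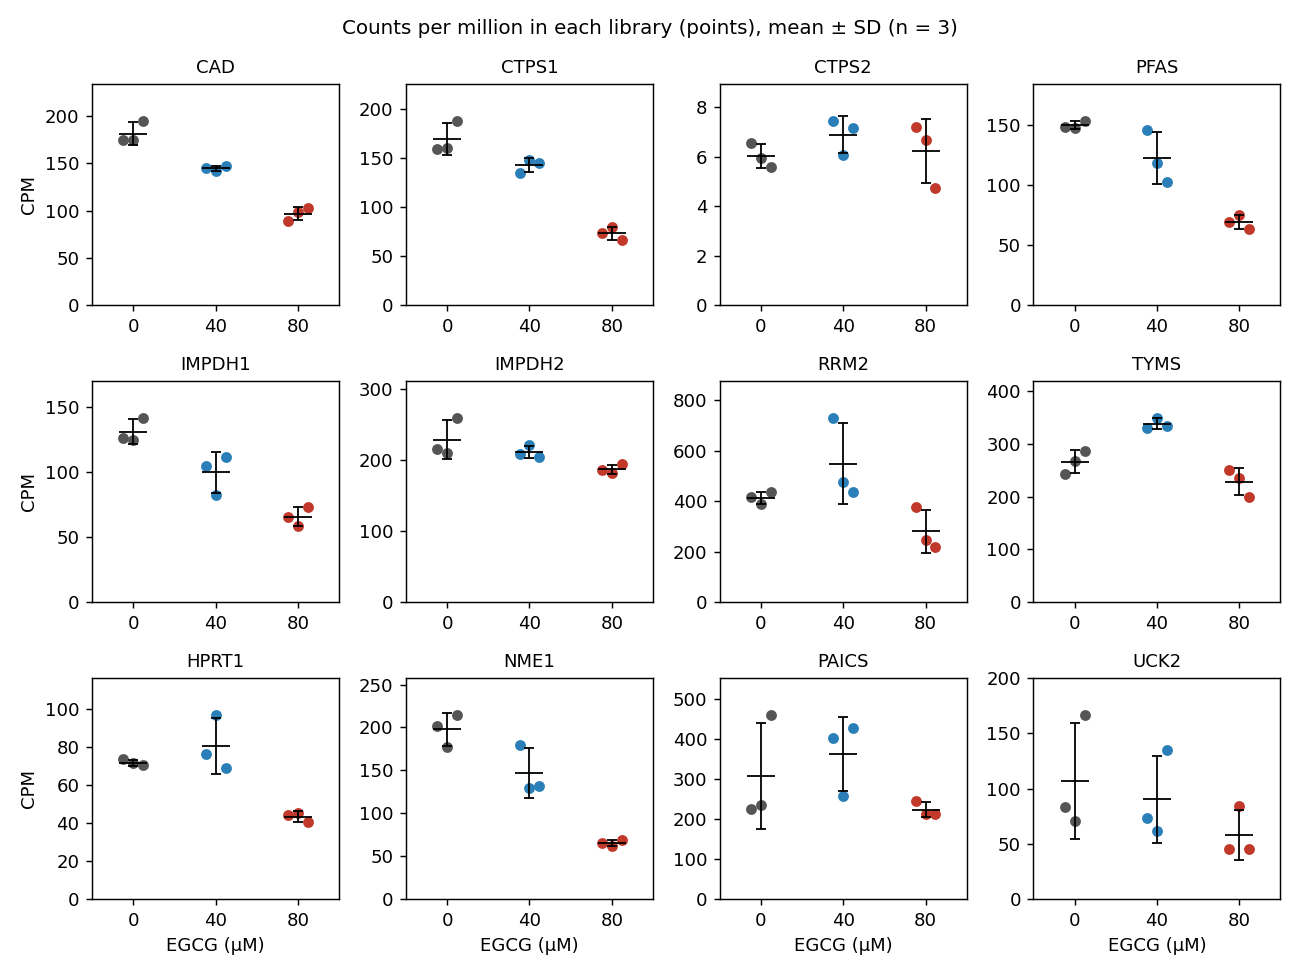
CPM (counts scaled to library size, vertical axis, linear from 0) in each of the 9 libraries for genes on which the results turn, with the mean and SD of each dose. The 80 µM libraries of CTPS1, between 66.5 and 79.9 CPM, lie below the control libraries, between 159 and 188, and those of PAICS, between 212 and 246, overlap the control.

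Of the 5 pyrimidine de novo genes 4 fell at 80 µM, and the median of the 5 was -0.90. CAD, a single protein with the first 3 enzyme activities of the route (chromosome 2, 27217390 to 27243943), had 174, 174 and 195 CPM in control libraries, 145, 142 and 147 at 40 µM and 89.0, 98.5 and 103 at 80 µM. The 3 doses gave 3 separate levels, and CAD fell by 0.90 ± 0.10 at 80 µM (adjusted p = 9e-05), and its estimate at 40 µM was -0.32 ± 0.10 (adjusted p = 0.11). DHODH, the mitochondrial enzyme that oxidises dihydroorotate, had 38.9, 38.8 and 45.5 CPM in control libraries, 40.7, 35.1 and 35.0 at 40 µM and 20.5, 20.9 and 22.8 at 80 µM. Control and 40 µM overlapped, 80 µM lay below both, and the fall was 0.94 ± 0.12 (adjusted p = 0.00027). UMPS, which joins orotate to PRPP and forms UMP, had 85.7, 85.5 and 93.5 CPM in control libraries, 87.8, 91.0 and 87.3 at 40 µM and 61.4, 59.5 and 58.3 at 80 µM. It was level up to 40 µM (log2 fold change 0.01) and fell by 0.56 ± 0.09 at 80 µM (adjusted p = 0.0011).

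CTP synthetase, which makes CTP from UTP, has the isoforms CTPS1 and CTPS2, and they parted at 80 µM. CTPS1 (chromosome 1, 40979335 to 41012565) had 159, 160 and 188 CPM in control libraries, 135, 148 and 145 at 40 µM and 73.3, 79.9 and 66.5 at 80 µM. It fell by 1.21 ± 0.11 (adjusted p = 3.6e-05), to 0.434 of the control level, without overlap between any 2 doses. CTPS2 had 6.55, 5.95 and 5.59 CPM in control libraries, 7.46, 6.05 and 7.15 at 40 µM and 7.21, 6.69 and 4.75 at 80 µM. Its libraries overlapped at all doses, with a log2 fold change at 80 µM of 0.05 ± 0.19 (adjusted p = 0.88). Per kilobase of exon CTPS1 was the more abundant isoform, with 14.7 ± 1.43 CPM per kb in the control against 1.09 ± 0.088 for CTPS2, the lowest of the 30 genes.

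In the deoxynucleotide supply RRM1, RRM2 and TYMS had their highest means at 40 µM. RRM1, the large subunit of ribonucleotide reductase, had 276, 284 and 259 CPM in control libraries, 275, 353 and 332 at 40 µM and 218, 193 and 192 at 80 µM. RRM2, its small subunit, which is known to be made in S phase, had 417, 389 and 435 CPM in control libraries, 731, 477 and 437 at 40 µM and 377, 246 and 218 at 80 µM. TYMS, thymidylate synthase, had 244, 268 and 287 CPM in control libraries, 331, 350 and 334 at 40 µM and 251, 235 and 200 at 80 µM. The 40 µM libraries of RRM2 and TYMS lay above all control libraries, yet the estimates of 0.41 ± 0.23 and 0.34 ± 0.11 did not pass (adjusted p = 0.34 and 0.12), and replicate 1 of RRM2 stood far above the others. Against 40 µM, all 5 genes of this group were lower at 80 µM: RRM2 by 0.97 ± 0.23, DUT by 0.70, RRM1 by 0.67 ± 0.11, TYMS by 0.56 ± 0.11 and DTYMK by 0.52 (adjusted p = 0.013, 0.0069, 0.0025, 0.0049 and 0.0069).

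Against the control 3 of these 5 fell at 80 µM. DUT, which removes dUTP and so supplies dUMP to TYMS, had 150, 131 and 134 CPM in control libraries, 134, 134 and 93.3 at 40 µM and 73.9, 68.7 and 79.4 at 80 µM, and it fell by 0.90 ± 0.14 (adjusted p = 0.00094). DTYMK, the kinase that acts on dTMP, went from 98.9 ± 10.3 to 60.6 ± 2.01 CPM and fell by 0.71 ± 0.11 (adjusted p = 0.00068). RRM1 fell by 0.44 ± 0.11 (adjusted p = 0.012), a call lost without replicate 2 or without replicate 3 of 80 µM (adjusted p over all alternatives 0.00478 to 0.0552). RRM2, at -0.56 ± 0.23 (adjusted p = 0.078), and TYMS, at -0.22 ± 0.11 (adjusted p = 0.14), did not pass, though the libraries of RRM2 did not overlap. RRM2 passed in 4 of 17 alternatives, which included leaving out replicate 1 of 80 µM (-0.84) or replicate 1 of 40 µM (-0.57) and fitting 6 libraries alone (-0.56) (adjusted p over all alternatives 0.0154 to 0.253), and its call between the doses was lost without replicate 2 or 3 of 80 µM (0.000534 to 0.0584). ENOSF1, on the opposite strand with 783 to 1555 counts in a library, shares 39.15% of the exon bases of TYMS, and the sources used here do not give the strand setting of the counting, so reads of the pair cannot be told apart. For DUT the antisense AC023355.1, with 23 to 60 counts, shares 14.5% in the same way.

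Among the kinases that bring nucleotides to the triphosphate level, NME1 had the lowest log2 fold change of all 30 genes as the reads were assigned. NME1 and NME2 are neighbouring genes on chromosome 17 (51153536 to 51162428 and 51165435 to 51171747) for nucleoside diphosphate kinases. NME1 had 202, 177 and 215 CPM in control libraries, 180, 129 and 132 at 40 µM and 65.6, 62.4 and 69.0 at 80 µM. All 80 µM libraries lay far below the rest, and NME1 fell by 1.59 ± 0.14 against the control (adjusted p = 2.9e-05), to 0.331 of its level, and by 1.16 ± 0.14 against 40 µM (adjusted p = 0.00062). NME2 had 346, 320 and 429 CPM in control libraries, 332, 168 and 251 at 40 µM and 204, 182 and 222 at 80 µM. Replicate 2 of 40 µM had the lowest NME2 of all libraries, the 80 µM libraries lay below the control, and NME2 fell by 0.85 ± 0.21 (adjusted p = 0.011). CMPK1, the kinase for UMP and CMP, had 191, 209 and 169 CPM in control libraries, 215, 262 and 223 at 40 µM and 215, 182 and 179 at 80 µM, and its log2 fold change at 80 µM was 0.02 ± 0.12 (adjusted p = 0.93).

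Reads of NME1 and NME2 cannot be assigned cleanly, because the readthrough gene NME1-NME2 shares 18.6% and 22.9% of their exon bases on the same strand. It took 30 to 34.2% of the counts of the 3 genes in 8 libraries and 47.1% in replicate 2 of 40 µM. Summed, the 3 genes had 823 ± 108, 629 ± 106 and 397 ± 23.1 CPM (SD, n = 3) at 0, 40 and 80 µM. When they were counted as 1 gene, a choice made after the data were seen, the sum fell by 1.05 ± 0.14 at 80 µM against the control (adjusted p = 0.0003), a smaller estimate than those of CTPS1, PRPS2 and PFAS, and by 0.67 ± 0.14 against 40 µM (adjusted p = 0.0072), where NME2 alone did not pass (-0.30, adjusted p = 0.34). Over all its alternatives, this sum included, the adjusted p of NME2 between the doses ran from 0.00716 to 0.879.

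Salvage was represented by 5 genes, of which 4 fell at 80 µM. HPRT1, which recycles hypoxanthine and guanine, had 73.4, 71.3 and 70.2 CPM in control libraries, 76.0, 96.9 and 68.8 at 40 µM and 44.4, 45.4 and 40.3 at 80 µM. The control libraries were close together, those at 80 µM lay below all others, and HPRT1 fell by 0.72 ± 0.13 (adjusted p = 0.0021). APRT, which recycles adenine, had 111, 91.0 and 116 CPM in control libraries, 95.1, 67.4 and 83.3 at 40 µM and 65.7, 48.9 and 59.7 at 80 µM, and it fell by 0.86 ± 0.16 against the control (adjusted p = 0.0022). Its call between the doses (-0.50 ± 0.16, adjusted p = 0.047) was lost in 11 of 17 alternatives (0.016 to 0.178), among them those without control replicate 1 or 3, without 40 µM replicate 1 or 3 and without 80 µM replicate 2 or 3.

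The salvage kinases for pyrimidine nucleosides were less uniform. TK1, the cytosolic thymidine kinase of dividing cells, had 219, 170 and 243 CPM in control libraries, 234, 191 and 200 at 40 µM and 154, 141 and 155 at 80 µM. DCK, which phosphorylates deoxycytidine and several nucleoside drugs, had 81.3, 88.1 and 79.5 CPM in control libraries, 84.1, 109 and 96.0 at 40 µM and 65.6, 62.1 and 54.1 at 80 µM. For both, the 80 µM libraries lay below all others, with falls of 0.49 ± 0.14 and 0.45 ± 0.12 against the control (adjusted p = 0.019 and 0.016). The call of TK1 was lost when replicate 1 or 3 of the control, or 2 or 3 of 80 µM, was left out (adjusted p over all alternatives 0.0046 to 0.0801), and that of DCK without control replicate 2 or 80 µM replicate 3 (0.00867 to 0.0795). UCK2, a uridine and cytidine kinase, had 83.5, 70.4 and 167 CPM in control libraries, 73.8, 62.0 and 135 at 40 µM and 45.4, 84.4 and 45.0 at 80 µM. One library in each group was about as high again as its fellows, the groups overlapped, and the log2 fold change of -0.88 ± 0.39 did not pass (adjusted p = 0.11). Against 40 µM, TK1 was lower by 0.47 (adjusted p = 0.031), a call that 6 of 17 alternatives did not keep (0.0153 to 0.122), those without control replicate 1, replicate 1 or 3 of 40 µM, or any one of the 80 µM replicates.

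Set side by side, de novo and salvage genes gave medians close to each other. At 80 µM 13 of 15 de novo genes and 4 of 5 salvage genes fell, with median log2 fold changes of -0.66 and -0.72. The mean over the de novo genes, relative to the control mean, was -0.63, -0.68 and -0.67 in the 3 libraries at 80 µM, and that over the salvage genes was -0.65, -0.59 and -0.76. These ranges overlapped, and the control libraries themselves ran from -0.18 to 0.20 for salvage. Of 12 purine genes 11 fell (median -0.69) and of 12 pyrimidine genes 8 (median -0.64), with library means of -0.61, -0.72 and -0.66 for purine and -0.57, -0.53 and -0.67 for pyrimidine. Without control replicate 3 the medians were -0.50 for salvage, -0.58 for de novo and -0.52 for pyrimidine. The 6 genes that serve both routes had a median of -0.71, and 4 of them fell. At 40 µM the medians were -0.08 for de novo, -0.01 for salvage, -0.07 for purine and -0.08 for pyrimidine genes. The deoxynucleotide group had the highest class median there, 0.23, and library means of 0.18, 0.17 and -0.02. The classes share the same libraries and some genes, and the difference between classes was not tested.

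**Figure D3:**
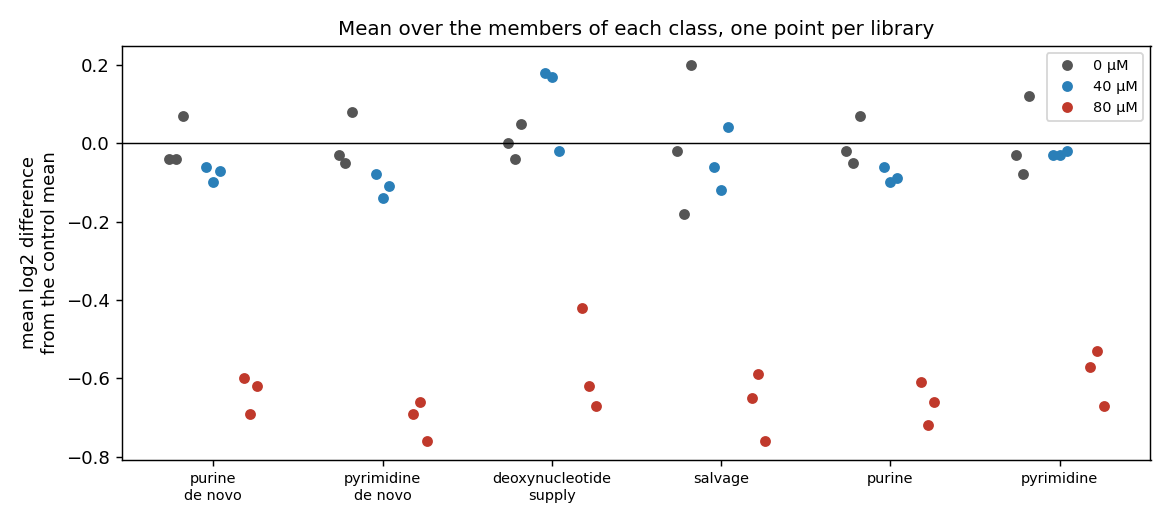
Mean log2 level of each class of genes relative to the control mean (vertical axis), 1 point per library, by EGCG dose. De novo and salvage means at 80 µM lie between -0.59 and -0.76, and the deoxynucleotide class at 40 µM lies between -0.02 and 0.18.

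Where a step has more than 1 isoenzyme, the balance between them could be followed in each library as the log2 ratio of CPM (with 1 CPM added to each). Of 8 pairs listed, 7 were measured, since ADSS1, the partner of ADSS2, was at 0 in all libraries. Of the 7, 6 changed with dose (exact permutation test over 1680 assignments of the libraries, two-sided on the slope, adjusted over the 7 pairs), where the smallest p the design allows is 0.00119. CTPS1 over CTPS2 had means of 4.59 ± 0.22, 4.19 ± 0.20 and 3.37 ± 0.19 at 0, 40 and 80 µM (SD, n = 3, exact adjusted p = 0.00833). IMPDH1 over IMPDH2 went from -0.79 ± 0.06 to -1.09 ± 0.29 and -1.50 ± 0.12 (exact adjusted p = 0.0111), so IMPDH2 held a growing share of the pair. TK1 over its mitochondrial counterpart TK2 went from 2.64 ± 0.10 to 2.48 ± 0.19 and 1.85 ± 0.26 (exact adjusted p = 0.0111).

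The other pairs were less firm. RRM2 over RRM2B, the small subunit known as a p53 target, was 5.11 ± 0.31, 5.12 ± 0.47 and 3.91 ± 0.23 at the 3 doses (exact adjusted p = 0.0236). RRM2B itself rose at 80 µM, from 11.8, 12.5 and 8.96 CPM in the control to 20.1, 16.4 and 15.4 (log2 fold change 0.64, adjusted p = 0.011). PRPS1 over PRPS2 went from 0.18 ± 0.73 to 0.44 ± 0.07 and 1.00 ± 0.10, and NME1 over NME2 from -0.87 ± 0.11 to -0.72 ± 0.30 and -1.61 ± 0.07 (exact adjusted p = 0.0236 for each), with the shared exons of the NME genes as above. UCK2 over UCK1 was 0.91 ± 0.53, 0.88 ± 0.63 and 0.11 ± 0.53, with overlap between the groups (exact permutation p = 0.142). The PRPS, NME and RRM2 pairs were not called without control replicate 1 or without any one of the 80 µM replicates (exact adjusted p 0.0531 to 0.1), nor was the NME pair without control replicate 2 (0.0521) or the RRM2 pair without control replicate 3 (0.0542).

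**Figure D4:**
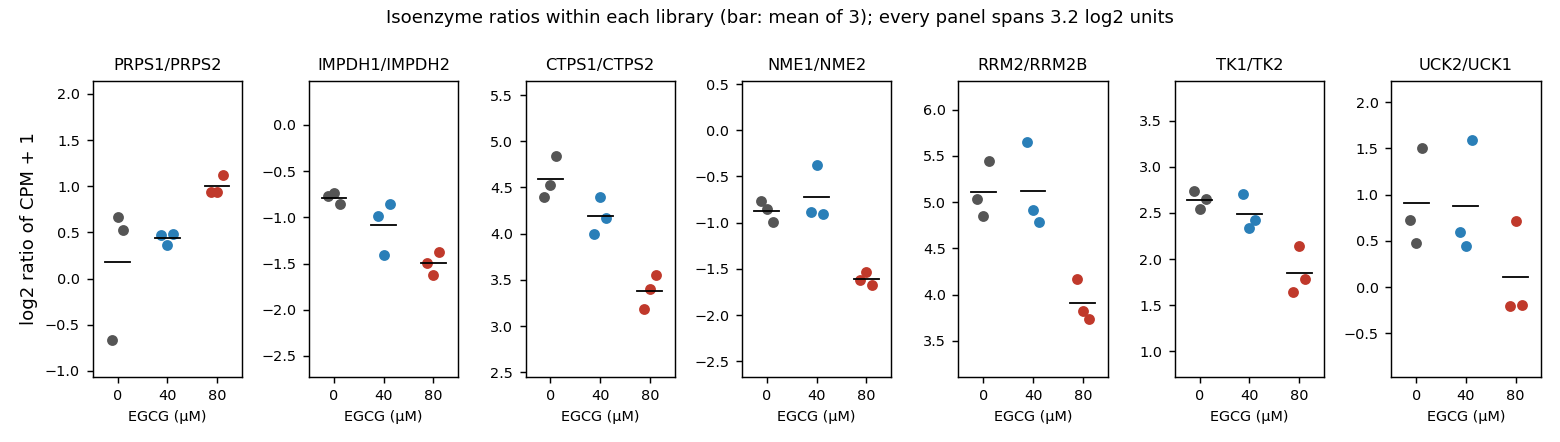
Log2 ratio of the CPM of isoenzymes (vertical axis, 1 CPM added) in each of the 9 libraries by EGCG dose, for the 7 pairs measured, with group means. CTPS1 over CTPS2 steps down from between 4.40 and 4.84 in the control to between 3.18 and 3.55 at 80 µM, and UCK2 over UCK1 overlaps between doses.

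Levels of the genes relative to one another were compared as CPM per kilobase of exon in GENCODE 29. In the control NME2 (139 ± 21.6 CPM per kb), TK1 (113 ± 20.0) and TYMS (108 ± 8.72) stood highest, and TK1 overlapped both NME2 and TYMS in its SD. Reads of NME2, and those of TYMS beside ENOSF1, cannot be assigned cleanly, as given above. IMPDH2 (82.5 ± 9.85) and RRM2 (77.7 ± 4.35) followed and overlapped each other. CTPS2 (1.09 ± 0.088) and DHODH (5.93 ± 0.555) stood lowest and apart from each other and from UMPS (11.6 ± 0.602). The deposited FPKM values gave another order for some genes. FPKM and counts together imply a length for each gene, and it was over 1.5 times the exon bases of GENCODE 29 for 21 of the 30, 14.2 times for IMPDH2, and longer than the whole gene for 3 (APRT, RRM2 and IMPDH2). IMPDH2 was thus the more abundant isoform per kilobase of exon (82.5 against 35.8 ± 2.60 for IMPDH1) and the less abundant by FPKM (5.76 against 14.4). The sources used here do not give the length behind the FPKM, and no fold change between doses depends on it.

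Other genes of nucleotide metabolism are given beside the 34.9% of all genes called at 80 µM, 17.5% lower and 17.4% higher. Of 21 listed purine genes of interconversion, salvage and breakdown 17 were tested, and at 80 µM 4 fell and 2 rose (median -0.28), so that the 35.3% called was close to the share of all genes. ADA, which deaminates adenosine, had 153, 172 and 186 CPM in control libraries, 161, 147 and 127 at 40 µM and 71.0, 65.1 and 74.2 at 80 µM, and fell by 1.28 ± 0.12 (adjusted p = 4.2e-05). PNP, which splits inosine and guanosine into base and sugar phosphate, went from 64.0 ± 9.42 to 28.4 ± 0.241 CPM and fell by 1.17 ± 0.13 (adjusted p = 0.00011). PRPSAP2, a partner protein of PRPP synthetase, rose by 0.49 ± 0.14 (adjusted p = 0.019), a call lost without control replicate 2 or 80 µM replicate 1 or 3 (0.00778 to 0.0626).

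Pyrimidine salvage and breakdown held 7 tested genes of 12, with 1 higher and 1 lower at 80 µM (median -0.03), or 28.6% called. UPP1, which splits uridine into uracil and ribose phosphate, had 18.8, 14.7 and 17.7 CPM in control libraries, 28.3, 33.3 and 26.5 at 40 µM and 57.7, 63.6 and 56.3 at 80 µM. Its 3 groups rose without overlap, by 0.78 ± 0.14 at 40 µM (adjusted p = 0.018) and 1.79 ± 0.14 at 80 µM (adjusted p = 1.3e-05). The call at 40 µM was lost when replicate 2 or 3 of the control, or 2 of 40 µM, was left out, and in 2 other alternatives (0.000147 to 0.0689). TYMP, the thymidine phosphorylase, fell by 0.69 ± 0.23 at 80 µM from a low level of 6.48 ± 1.08 CPM (adjusted p = 0.038), and 6 of 17 alternatives did not call it (0.0309 to 0.145), among them those without replicate 2 or 3 of the control, 3 of 40 µM, or 1 or 2 of 80 µM. NT5C3A, a pyrimidine nucleotidase, did not pass (0.26, adjusted p = 0.23).

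Of the 10 further genes of deoxynucleotide supply and control 3 fell and 1 rose at 80 µM (median -0.37), and this 40% called was near the 34.9% of all genes. DCTPP1, which removes dCTP and its modified forms, fell by 1.05 ± 0.17 (adjusted p = 0.001), and SAMHD1, which degrades deoxynucleotide triphosphates, fell by 0.58 ± 0.14 (adjusted p = 0.0078). The gene that rose was RRM2B, given above. Of 3 other nucleoside diphosphate kinases 2 fell: NME4 by 1.04 ± 0.19 (adjusted p = 0.0019) and NME3 by 0.63 ± 0.22 (adjusted p = 0.047), which 10 of 17 alternatives did not call (0.0146 to 0.172), among them those without replicate 1 or 3 of the control, 3 of 40 µM or any one of 80 µM, and NME6 stood at 0.38 (adjusted p = 0.076). Nucleoside transport had 4 tested genes of 8, of which 2 fell (median -0.25). SLC29A1, the main equilibrative nucleoside transporter of the plasma membrane, went from 193, 178 and 223 CPM in the control to 166, 181 and 157 at 40 µM and 87.9, 89.6 and 87.7 at 80 µM, a fall of 1.16 ± 0.11 (adjusted p = 3.8e-05), and SLC25A33, a mitochondrial pyrimidine nucleotide carrier, fell by 0.65 ± 0.15 (adjusted p = 0.008). SLC25A36, of the same carrier family, had 65.6, 75.7 and 63.2 CPM in control libraries and 101, 95.9 and 102 at 80 µM, without overlap. It was not called (0.54 ± 0.32, adjusted p = 0.22), but it passed without 40 µM replicate 1 and with 6 libraries fitted (over all alternatives 0.00354 to 0.389).

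Folate enzymes supply the carbon units that GART, ATIC and TYMS use. Of the 9 folate genes listed 8 changed at 80 µM, with 3 higher and 5 lower (median -0.35), where 34.9% of all genes were called. MTHFD2, a mitochondrial enzyme of this supply, had 329, 322 and 298 CPM in control libraries, 482, 541 and 498 at 40 µM and 783, 702 and 696 at 80 µM. MTHFD1, its cytosolic counterpart, had 110, 119 and 125 CPM in control libraries, 113, 113 and 105 at 40 µM and 61.8, 64.0 and 63.1 at 80 µM. They moved in opposite directions at 80 µM, MTHFD2 up by 1.20 ± 0.10 and MTHFD1 down by 0.91 ± 0.09 (log2 fold changes 1.20 and -0.91, adjusted p = 1.5e-05 and 7.1e-05), and MTHFD2 also rose at 40 µM, by 0.68 ± 0.10 (adjusted p = 0.005). SLC19A1, the reduced folate carrier, had 317, 296 and 424 CPM in control libraries, 181, 215 and 192 at 40 µM and 123, 102 and 140 at 80 µM. It fell by 1.51 ± 0.16 at 80 µM (adjusted p = 8.9e-05) and by 0.82 ± 0.16 at 40 µM (adjusted p = 0.027), and the call at 40 µM was lost without control replicate 1 or 3, without any one of the 40 µM replicates or without 80 µM replicate 1 (0.000239 to 0.099).

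**Figure D5:**
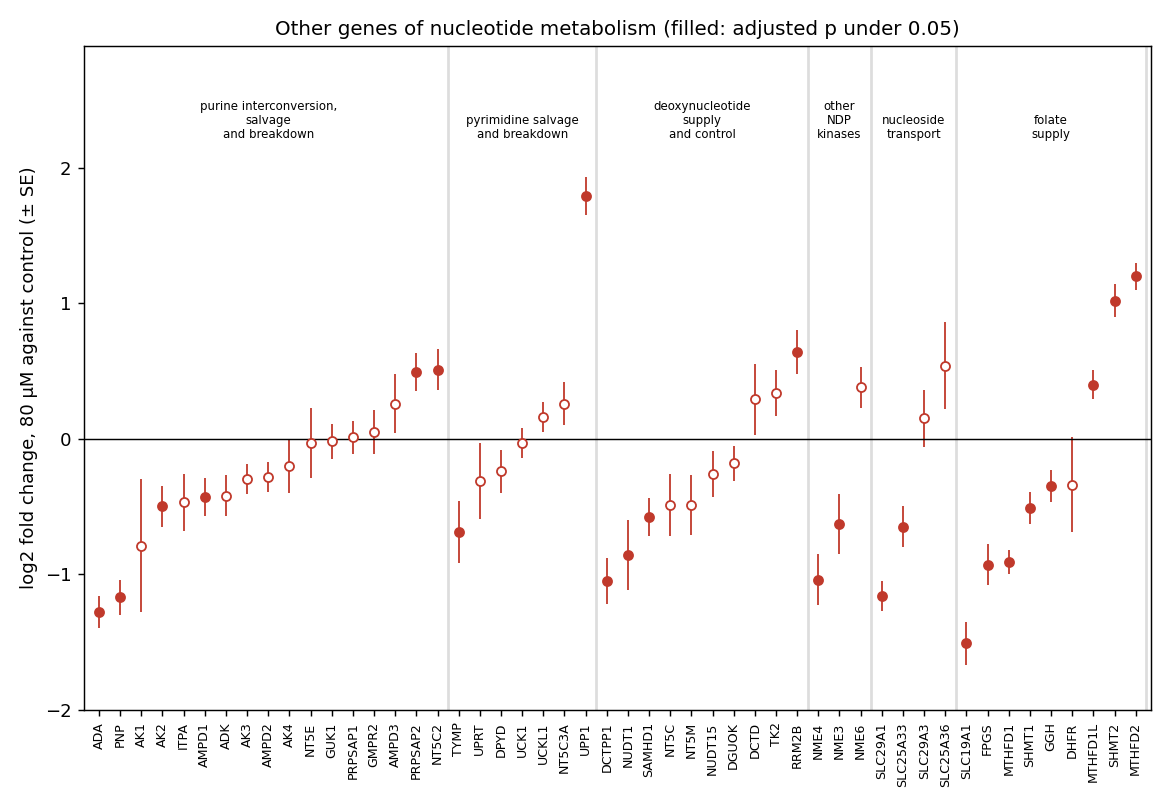
Log2 fold change at 80 µM against the control (vertical axis, bars are the standard error) for the tested genes of 6 further lists of nucleotide and folate metabolism; filled points passed an adjusted p of 0.05. UPP1 at 1.79 is the highest filled point and SLC19A1 at -1.51 the lowest.

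Most listed genes of the cell cycle also fell at 80 µM, where 34.9% of all genes tested were called, 17.5% lower and 17.4% higher. Of 12 S phase genes 9 fell at 80 µM and none rose (median -0.59), among them CCNE1 by 1.29 ± 0.11, MCM4 by 1.15 ± 0.12 and GINS2 by 1.12 ± 0.11 (adjusted p = 2.3e-05, 7.5e-05 and 4.7e-05). Of 8 genes of G2 and mitosis 5 fell (median -0.50), among them PLK1 by 0.79 ± 0.11, CCNB1 by 0.65 ± 0.13 and CCNA2 by 0.54 ± 0.10 (adjusted p = 0.00042, 0.0028 and 0.0024). Not called at 80 µM were CCNE2, CDC6 and CDT1 of the S phase list (-0.44, -0.31 and 0). Of the G2 and mitosis list CDK1, MKI67 and AURKA were not called (-0.38, -0.21 and 0). At 40 µM none of either list was called, where 2.30% of all genes were, with medians of -0.04 for S phase and 0.22 for G2 and mitosis. Summed S phase levels ran from 2540 to 2970 CPM in control libraries, 2490 to 2650 at 40 µM and 1650 to 1790 at 80 µM, and the 80 µM libraries were the lowest for the 30 genes too, whose summed levels were 4520 to 5230, 4640 to 5010 and 3020 to 3310 CPM. The part of the cell cycle in the lower level of the nucleotide genes was not tested.

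Of 9 listed regulators of these pathways 2 fell at 80 µM and none rose (median -0.17), or 22.2% called where 34.9% of all genes were. E2F1, a factor that drives S phase genes, had 195, 189 and 222 CPM in control libraries, 174, 131 and 142 at 40 µM and 97.6, 97.2 and 107 at 80 µM, and fell by 1.00 ± 0.12 (adjusted p = 0.0002). MAX, the partner of MYC, fell by 0.86 ± 0.25 (adjusted p = 0.020), a call lost without control replicate 1 or 80 µM replicate 1 or 2 (0.00358 to 0.0822). MYC itself, known to drive many of the 30 genes, had 20.1, 20.5 and 74.0 CPM in control libraries, 54.7, 18.1 and 52.1 at 40 µM and 13.7, 31.1 and 11.8 at 80 µM. Libraries of 1 dose differed by more than the doses did, and its log2 fold change of -1.01 ± 0.59 did not pass (adjusted p = 0.21). ATF4, known to drive MTHFD2 under amino acid stress, had 309, 282 and 109 CPM in control libraries, 190, 379 and 151 at 40 µM and 749, 222 and 728 at 80 µM, and also did not pass (1.28 ± 0.51, adjusted p = 0.077). Leaving out replicate 2 of 80 µM, the library with 222 CPM, was the only alternative in which ATF4 passed (log2 fold change 1.68, adjusted p = 0.0212). The part of any of these factors in the levels of the 30 genes was not tested.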

How the data were processed

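RNA of 9 MM.1S libraries, 3 per EGCG dose, was sequenced. The authors deposited whole-number counts per gene, not normalized, and FPKM values, scaled by library size and a gene length, per the file headers. Per the submitters' processing notes, GRCh38, HISAT2, SAMtools 1.3.1, CASAVA 1.8 and edgeR were used, in roles they do not state. The sources used here give neither the annotation release nor the counting program and its strand setting. No count was recomputed. Genes were kept with filterByExpr (15982), scaled by TMM and tested with edgeR (4.0.16, under R 4.3.3) by its quasi-likelihood test, with dose as the single factor, all 9 libraries in 1 fit (6 residual degrees of freedom, common biological coefficient of variation 0.187) and Benjamini-Hochberg adjustment over all genes tested. A gene was called at an adjusted p under 0.05, and the script was tested on simulated data. Standard errors are the absolute log2 fold change over the square root of F. CPM are TMM-scaled counts (per the library size), as means ± SD over 3 libraries where so given, and a floor of 3 counts is 0.183 to 0.237 CPM. Replicates differed with a chi-square per degree of freedom of 12.1 to 31.7, so none was a copy. The members and gene lists were chosen with earlier results of these data known. Named are all 30 members, the 3 genes with the smallest p at 80 µM in each other list, isoenzymes of members and MYC. Alternatives were other scalings (RLE, none), DESeq2 1.42.0, limma-voom (limma 3.58.1), other filters, 6 libraries only, a replicate block and leaving out each library.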

Additional observations from a re-analysis of the deposited data

How the results depend on the processing

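No member changed direction in a call, and at 80 µM 22 to 23 of the 30 were called lower against the control and 22 to 25 against 40 µM under other scalings, tests, filters and sample choices. Leaving out each library in turn gave 19 to 23 and 18 to 23, the fewest against the control without 80 µM replicate 2 or 3, and 0 to 1 at 40 µM. The number of isoenzyme pairs called was 3 to 6 in the same way. Class medians moved by more than the spread between replicates when a library was left out: at 40 µM de novo -0.13 to -0.03, salvage -0.15 to 0.13, purine -0.14 to -0.03 and pyrimidine -0.17 to 0.05; at 80 µM de novo -0.69 to -0.58, salvage -0.74 to -0.50, purine -0.71 to -0.64 and pyrimidine -0.69 to -0.52; between the doses salvage -0.76 to -0.50. Over all genes, 368 were called at 40 µM, but 834 with DESeq2, 228 with no filter, 153 with 6 libraries, 183 with the replicate block and 136 to 469 when a library was left out. The cause was not tested. Replicate numbers did not pair the libraries: same-numbered libraries of different doses correlated at -0.139 to 0.0513 after group means were removed (9 pairs), and 1 library correlated best with its own number. With the replicate block 0, 23 and 24 members were called at 40 µM, at 80 µM and between the doses, and the block called RRM2 at 80 µM (-0.61, adjusted p = 0.0214) and PRPS1 between the doses (-0.53, adjusted p = 0.0463) and lost IMPDH2 at 80 µM and UPP1 at 40 µM. Depth limits CTPS2 most, which had the lowest level of the 30.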

Other observations

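MYC, ATF4, PAICS and UCK2 differed between libraries of the same dose. Control replicate 3 and 80 µM replicate 2 had the highest MYC of their dose (74.0 and 31.1 CPM), the lowest ATF4 (109 and 222 CPM) and the highest UCK2 (167 and 84.4 CPM), and 40 µM replicate 2 had the lowest MYC (18.1 CPM), the highest ATF4 (379 CPM) and the lowest UCK2 (62.0 CPM). This order did not hold throughout at 40 µM. Replicate 1 had the highest MYC there (54.7 CPM), but replicate 3 had the lowest ATF4 (151 CPM) and the highest UCK2 (135 CPM). The 3 libraries with MYC above 50 CPM (74.0 in control replicate 3, 54.7 and 52.1 in replicates 1 and 3 of 40 µM) were those with PAICS above 400 CPM (461, 403 and 427). At 80 µM PAICS did not follow MYC. Replicate 2, with the highest MYC of its dose, had the lowest PAICS (212 CPM). Replicate 3, with the lowest MYC (11.8 CPM), had nearly the same PAICS (214 CPM), and replicate 1 had 246 CPM. These patterns were seen after the values were known, in 3 libraries a dose, and were not tested.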
